A study of Drosophila melanogaster with 4 samples.

Results

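BS, the X element and BS3 are related LINEs of the jockey clade, and the data are the 24 to 29 nt small RNA reads over their copies in Drosophila melanogaster ovaries. The members are all rows of the deposited repeat count table whose repeat name is BS, BS2 or BS3_DM, which gave 628 copies of 137555 rows: 159 of BS, 317 of BS2 and 152 of BS3_DM. Of the copies whose length lay to at least 50% under an annotated transposon insertion, 47 of 49 BS copies lay under an insertion called BS, 78 of 83 BS2 copies under one called X or X-element, and 42 of 45 BS3_DM copies under one called BS3. BS2 is therefore called the X element here. The fit between table name and annotation was 95.9% for BS, 94.0% for the X element and 93.3% for BS3. No chromosome sequence was used here, so the copies are given by position and length.

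LINEs are retrotransposons without long terminal repeats. They move when their own RNA is copied into DNA at a new site, a process that often stops early and leaves copies without their 5' end. In fly ovaries, germ cells and follicle cells silence such elements with piRNAs, small RNAs bound by Piwi proteins, many of which come from long transcripts of heterochromatic loci called piRNA clusters. Cluster 42AB is the best known germline cluster and is read from both strands, and 38C and 80F are other germline clusters. Ars2 is an RNA-binding protein that works with the nuclear cap-binding complex.

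In 2 libraries Ars2 was knocked down in the germline by the hairpin Ars2_sh1 (VDRC stock 106344, Ars2KD). In the other 2 the hairpin white_sh (VDRC stock 30033, wKD) was aimed instead at white, which acts in eye pigmentation, so all 4 libraries come from flies with a hairpin. Only germ cells are targeted, and the libraries hold the RNA of the whole ovary, follicle cells included. A change in the number of germ cells and a change in the RNA per germ cell cannot be told apart in such samples. The labels give neither age nor the driver of the hairpin. They also leave unsaid whether the libraries stem from separate flies, and the p-values below measure only the spread between these libraries, which may be technical. Ars2 mRNA is not measured by these tables, so the knockdown itself was not checked here. RNA of 19 to 29 nt was cut from a gel.

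The repeat table held 46218 and 169124 counts in Ars2KD 1 and 2, against 64395 and 323180 in wKD 1 and 2. The ovarian miRNAs miR-184-3p, miR-989-3p, miR-318-3p and bantam-3p made up 24.6% and 58.9% of miRNA counts in Ars2KD 1 and 2, against 23.3% and 49.7% in wKD 1 and 2. Most of this was miR-184-3p in the libraries numbered 2 (47.6% in Ars2KD 2 and 35.1% in wKD 2), where miR-318-3p (0.386% in Ars2KD 2 and 2.03% in wKD 2) and bantam-3p (2.62% in Ars2KD 2 and 5.28% in wKD 2) were lower in Ars2KD. The neuronal miR-124-3p had 0 counts in each library, and the muscle miRNAs miR-1-3p and miR-133-3p together took 0.815% to 1.76%. The germline families HeT-A, Rt1b and Burdock held 11.01% and 13.98% of repeat counts in Ars2KD 1 and 2, against 12.0% and 18.2% in wKD 1 and 2, nearly all of it Rt1b. Of the other members, HeT-A held 0.422% and 0.326% in Ars2KD 1 and 2, against 1.12% and 0.710% in wKD 1 and 2, and Burdock held 0.0649% and 0.0721% in Ars2KD 1 and 2, against 0.0544% and 0.0582% in wKD 1 and 2. The 5 follicle cell families (ZAM, gypsy, gypsy5, Tabor and Idefix) held 2.81% to 3.81%. The part of these differences in the values below was not tested.

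Reads over the 3 elements were abundant in every library and did not pass the test between the groups. Together they held 3.84% and 7.23% of all repeat counts in Ars2KD 1 and 2, against 3.79% and 7.28% in wKD 1 and 2. BS, whose reads lay mostly over a single copy in cluster 42AB, differed about 4-fold between the libraries of each group after TMM normalisation. Its difference between the groups was small beside its standard error (log2 ratio -0.23, SE 0.65). The X element and BS3 varied less among the 4 libraries than BS.

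BS had the most reads of the 3 in every library but Ars2KD 1, where the X element had more. It had 616 and 7975 counts in Ars2KD 1 and 2, against 1037 and 16634 in wKD 1 and 2. Scaled to library size, as CPM of the family sums with TMM normalisation, BS averaged 32292 ± 28195 CPM in Ars2KD and 37885 ± 32912 CPM in wKD (mean ± SD, n = 2 each). Both libraries numbered 2 lay far above both numbered 1, so the groups overlapped. The log2 ratio of Ars2KD over wKD was -0.23 (standard error 0.65, adjusted p 0.994 by the edgeR quasi-likelihood test). The same ratio was -0.24 (95% interval -0.39 to -0.10) between the libraries numbered 1 and -0.23 (-0.27 to -0.19) between those numbered 2. These intervals cover counting error only. Without Ars2KD 1 the BS ratio became 0.52, and without wKD 2 it became 1.14. Each of these fits compares unequal sets of library numbers, and BS differed strongly between the numbers. They therefore cannot show how stable the sign is.

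The X element had 674 and 2605 counts in Ars2KD 1 and 2, against 766 and 4050 in wKD 1 and 2. It averaged 15290 ± 2504 CPM in Ars2KD and 12842 ± 2897 CPM in wKD (mean ± SD, n = 2 each), and wKD 2 at 14890 CPM lay above Ars2KD 1 at 13519 CPM, so these groups overlapped as well. The log2 ratio was 0.25 (SE 0.35, adjusted p 0.994 by edgeR), and was 0.32 (0.17 to 0.48) and 0.20 (0.12 to 0.27) between the libraries numbered 1 and 2. BS3 had 486 and 1652 counts in Ars2KD 1 and 2, against 639 and 2847 in wKD 1 and 2. It averaged 10284 ± 757 CPM in Ars2KD and 9736 ± 1035 CPM in wKD (mean ± SD, n = 2 each). Its groups overlapped, and its log2 ratio was 0.08 (SE 0.32, adjusted p 0.994 by edgeR), which turned to -0.04 when libraries were scaled to the total of both tables.

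**Figure D1:**
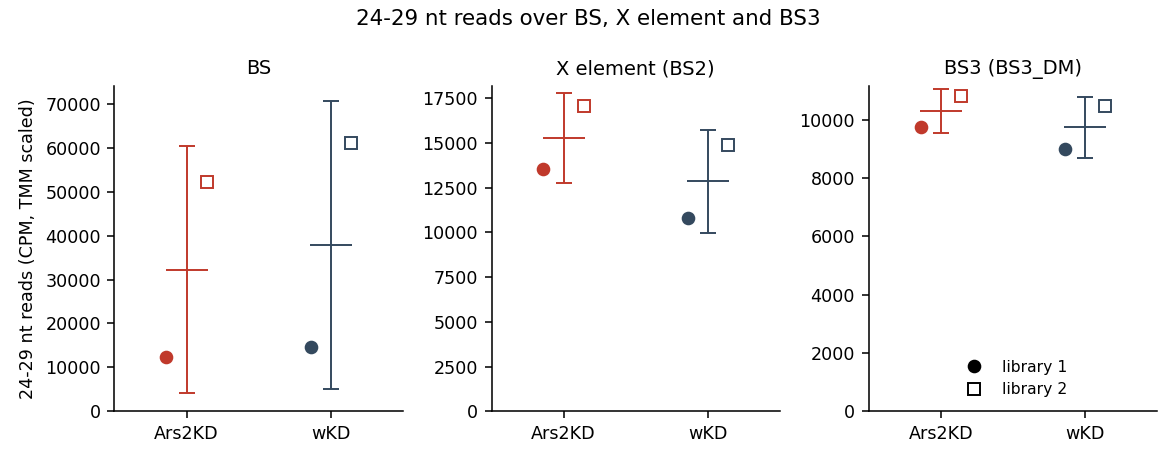
Each panel plots 24 to 29 nt reads over all copies of 1 name, in CPM after TMM scaling, for Ars2KD on the left and wKD on the right. Filled circles are libraries 1, open squares libraries 2, and bars show the mean and SD. For BS the libraries numbered 1 lie at 12356 CPM in Ars2KD and 14612 CPM in wKD, far below those numbered 2, while the X element and BS3 points lie close together.

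Of 135 families tested, 1 was higher (0.741%) and 0 were lower (0%) in Ars2KD, and the 1 called was not a member. At an unadjusted p under 0.05 there were 6 higher (4.44%) and 10 lower families (7.41%), with no member among them. All 3 members had overlapping groups, whereas 23 families (17.0%) were higher and 23 (17.0%) lower in both Ars2KD libraries than in both wKD libraries. DESeq2 and limma-voom also called 0 of the 3 members. A list of 19 other jockey-clade LINEs, which leaves out the telomeric ones, had 18 families that passed the filter on low counts. Of these 1 rose, jockey itself (LINEJ1_DM), at a log2 ratio of 2.48 (SE 0.32, adjusted p 0.000335 by edgeR), and 0 fell. The median of the 18 was 0.32 with 11 above 0, and the median over all 135 families was -0.02 with 62 above 0. Below all 3 members in this list were Doc at -0.48 (SE 0.32) and the F-element relative FW3 at -0.43 (SE 0.35), and 9 families lay above all 3 members, from G2 at 0.40 (SE 0.42) to jockey. Of the telomeric LINEs, which maintain chromosome ends, HeT-A had a log2 ratio of -1.30 (SE 0.31, adjusted p 0.0558 by edgeR), TAHRE -0.45 (SE 0.43) and TART -0.00 (SE 0.35). HeT-A passed the threshold with DESeq2 (adjusted p 0.00708) and limma-voom (adjusted p 0.0367), and its adjusted p ranged from 0.00377 to 0.999 over all settings tried. Scaling to the total of both tables moved the median of all families to -0.15, with BS at -0.55 and the X element at 0.11.

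Relative to the length of annotated copies, BS had 296 ± 258 CPM per kb in Ars2KD and 347 ± 301 CPM per kb in wKD (mean ± SD, n = 2 each). BS3 had 172 ± 12.6 CPM per kb in Ars2KD and 162 ± 17.3 CPM per kb in wKD. The X element had 66.5 ± 10.9 CPM per kb in Ars2KD and 55.9 ± 12.6 CPM per kb in wKD. The X element level was the lowest in all 4 libraries. The order of BS and BS3 differed between libraries: BS3 was higher in those numbered 1, at 163 against 113 CPM per kb in Ars2KD 1 and 150 against 134 CPM per kb in wKD 1, and BS in those numbered 2. By mean CPM per kb the 3 elements ranked 3 (BS), 10 (BS3) and 28 (X element) among the 135 families.

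BS had the highest mean log2 ratio of library 2 over library 1 of the 135 families, while 5 families that were lower in libraries 2 differed by a larger size. BS reads were 4.23-fold higher in Ars2KD 2 than in Ars2KD 1 and 4.19-fold higher in wKD 2 than in wKD 1, and BS was the 1 family of 135 above 4-fold in both groups. Above 3-fold in both groups, again after TMM scaling, were 2 families. For the X element these ratios were 1.26 in Ars2KD and 1.38 in wKD, and for BS3 they were 1.11 in Ars2KD and 1.16 in wKD. The families whose centred log2 CPM over the 4 libraries lay closest to BS were the LTR elements Batumi (Euclidean distance 0.745) and Stalker2 (0.762) and the LINE Doc2 (0.929), against a median distance of 2.19 for the other families. Batumi, the closest, had 28964 and 74083 CPM in Ars2KD 1 and 2, against 31099 and 78051 CPM in wKD 1 and 2. The labels do not say what the numbers 1 and 2 stand for.

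**Figure D2:**
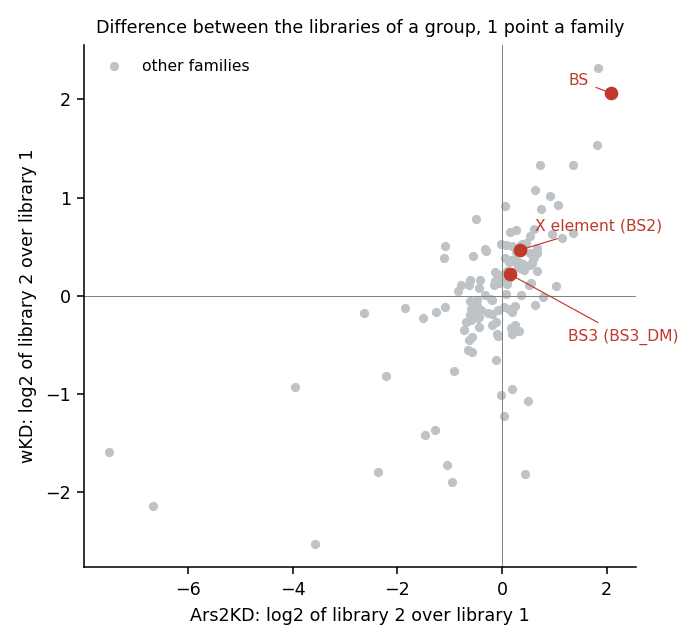
Each point is 1 of 135 families, placed by the log2 ratio of library 2 over library 1 in Ars2KD (x axis) and in wKD (y axis), from CPM plus 1. Red points are the 3 elements: BS lies in the upper right corner at 2.08 in Ars2KD and 2.07 in wKD, and the X element and BS3 lie near the centre.

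The reads over the 3 elements were assigned to different places. How reads with several equal positions were assigned is not stated, so the place of a count need not be where the read arose. Cluster 42AB was taken as the gap between the genes Pld and jing (2R:6255267-6502005, dm6), and windows around the clusters 38C, 80F, 20A and flamenco were set by hand. BS had 1 copy in 42AB, which held 56.7% (exact 95% interval 52.6 to 60.6) and 84.2% (83.4 to 85.0) of BS reads in Ars2KD 1 and 2, against 61.3% (58.3 to 64.3) and 84.3% (83.8 to 84.9) in wKD 1 and 2. The 4 BS copies in 38C held 33.1% and 10.7% of BS reads in Ars2KD 1 and 2, against 30.4% and 9.68% in wKD 1 and 2. The 152 copies outside the clusters shared the rest, a mean of 7.66% ± 3.63 in Ars2KD and 7.15% ± 1.62 in wKD (mean ± SD, n = 2 each). The BS shares were alike in the same-numbered libraries of both groups and differed between the numbers.

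The X element was spread most widely. Its 308 copies outside the clusters held 77.9% ± 2.26 of its reads in Ars2KD and 70.4% ± 1.68 in wKD (mean ± SD, n = 2 each). Its 5 copies in 38C held 15.5% ± 2.67 in Ars2KD and 19.5% ± 2.33 in wKD, and its 3 copies in 42AB held 3.44% ± 2.35 in Ars2KD and 6.55% ± 5.197 in wKD. By chromosome arm the most X element reads lay on 3L (36.8% ± 1.19 in Ars2KD and 31.4% ± 5.29 in wKD) and 2R (27.6% ± 1.63 in Ars2KD and 30.5% ± 8.18 in wKD). BS3 was concentrated in 80F, where 3 adjoining copies held 57.0% and 43.0% of BS3 reads in Ars2KD 1 and 2, against 59.5% and 61.6% in wKD 1 and 2. Its 2 short copies in 42AB had 0 counts in both Ars2KD libraries and 5 and 8 in wKD 1 and 2. With 2 libraries a group, an exact permutation test of a share cannot give a two-sided p below 0.33, so shares were not tested. The copies on unplaced scaffolds (14 of BS, 36 of the X element and 5 of BS3) had 0 counts. On chromosome Y, 0 of 17 BS copies and 9 of 30 X element copies had a count. These X element copies had 3 and 50 counts in Ars2KD 1 and 2, against 6 and 83 in wKD 1 and 2. The counts give the position assigned to a read, and whether these reads arose from Y copies was not tested.

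**Figure D3:**
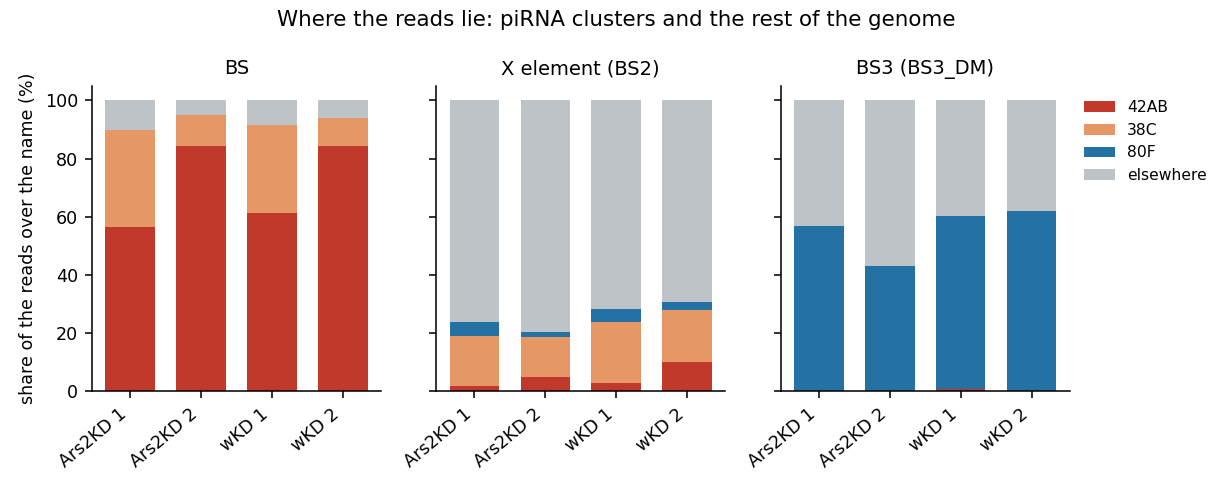
Stacked bars give the share of each name's reads (%) that lay in clusters 42AB, 38C and 80F and elsewhere, per library, with Ars2KD left of wKD. BS is mostly 42AB, with 56.7% and 61.3% in the libraries numbered 1 and over 84% in those numbered 2. The X element is mostly elsewhere and BS3 is split between 80F and elsewhere.

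When every family was divided into copies in 42AB, in the other clusters and elsewhere, 209 such sums were tested and 1 was higher (0.478%) and 0 lower (0%) in Ars2KD, and the 1 called was not of a member. At an unadjusted p under 0.05, 10 sums were higher (4.78%) and 11 lower (5.26%), and DESeq2 likewise called no sum of a member. The X element outside the clusters had 514 and 2070 counts in Ars2KD 1 and 2, against 548 and 2801 in wKD 1 and 2. On the scale of this fit it averaged 12245 ± 2874 CPM in Ars2KD and 8802 ± 1404 CPM in wKD (mean ± SD, n = 2 each), and its groups did not overlap, as was so for 16.7% of all sums on the higher side. The log2 ratio was 0.48 (SE 0.29, adjusted p 0.680 by edgeR), with 0.39 (0.21 to 0.56) and 0.54 (0.46 to 0.63) within numbers 1 and 2. BS3 outside the clusters had 209 and 942 counts in Ars2KD 1 and 2, against 254 and 1085 in wKD 1 and 2, with a log2 ratio of 0.53 (SE 0.29, adjusted p 0.597 by edgeR; 0.20 and 0.78 within numbers 1 and 2). Its groups did not overlap either. A single copy whose name is uncertain (3L:23814125-23814752, described below) held 11 and 281 of these counts in Ars2KD 1 and 2, against 10 and 193 in wKD 1 and 2. The ratio without this copy was not tested. In the clusters other than 42AB the ratios were -0.02 (SE 0.28) for BS, -0.00 (SE 0.20) for the X element and -0.15 (SE 0.21) for BS3, and the difference between places was not tested.

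The 42AB reads of BS had a log2 ratio of -0.13 (SE 1.13, adjusted p 0.994 by edgeR) on this scale, with -0.39 (-0.58 to -0.20) and -0.08 (-0.12 to -0.04) within numbers 1 and 2. The ratio became 0.65 without Ars2KD 1, 1.51 without wKD 2 and -2.05 without Ars2KD 2. In that last fit, which sets Ars2KD 1 alone against both wKD libraries, this sum of a member was called lower. With a library left out, the groups hold unequal sets of library numbers, between which these reads differed strongly. Such fits therefore cannot show how stable the ratio is. The X element reads in 42AB, 12 and 133 counts in Ars2KD 1 and 2 against 22 and 414 in wKD 1 and 2, had -0.59 (SE 0.92, adjusted p 0.957 by edgeR). For the whole cluster, 42AB copies held 20.5% and 27.4% of repeat counts in Ars2KD 1 and 2, against 26.2% and 36.3% in wKD 1 and 2. These groups overlapped. Of 33 families tested in 42AB, 2 had a ratio above 0, with a median of -0.53, and 0 were called. Elsewhere 78 of 133 families had a ratio above 0, with a median of 0.09, and over all sums 47.8% did. The families were measured in the same libraries and are not independent.

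The BS copy in 42AB lies at 2R:6307139-6312172 (dm6). It is 5034 bp long, between genes, and 51873 bp from Pld. The annotation places it on the minus strand, nested in a roo insertion that is itself nested in an Rt1b insertion, both on the plus strand. It had 349 and 6716 counts in Ars2KD 1 and 2, against 636 and 14025 in wKD 1 and 2. As CPM of the repeat total, without TMM scaling, this is 7551 and 39711 in Ars2KD 1 and 2, against 9877 and 43397 in wKD 1 and 2. The 2 libraries numbered 2 were high and the 2 numbered 1 low, and the groups overlapped. In the test on single copies its log2 ratio was -0.24 (SE 0.98, adjusted p 0.999 by edgeR), with -0.46 (-0.66 to -0.27) and -0.20 (-0.24 to -0.16) within numbers 1 and 2. Among all rows of the table it ranked 16 and 3 by count in Ars2KD 1 and 2, against 9 and 3 in wKD 1 and 2.

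The rest of 42AB as a whole had a smaller split between libraries. As shares of repeat counts, the 6 member copies of 42AB, nearly all of whose reads lay in the BS copy, were 5.18-fold higher in Ars2KD 2 than in Ars2KD 1 and 4.34-fold higher in wKD 2 than in wKD 1. The 175 other transposon copies of 42AB together were 1.18-fold higher in Ars2KD 2 than in Ars2KD 1 and 1.27-fold higher in wKD 2 than in wKD 1. The wide split was not limited to BS. After TMM scaling, X element reads in 42AB were 3.85-fold higher in library 2 in Ars2KD and 4.62-fold in wKD. On that scale BS reads in 42AB were 6.68-fold higher in Ars2KD and 5.41-fold in wKD. The 477 bp roo fragment that touches the BS copy on its left had 6 and 18 counts in Ars2KD 1 and 2, against 32 and 86 in wKD 1 and 2. The 325 bp roo fragment on its right had 5 and 5 counts in Ars2KD 1 and 2, against 24 and 32 in wKD 1 and 2. A 4692 bp F element (FW_DM) 314 bp away had 0 counts in both Ars2KD libraries and 0 and 1 in wKD 1 and 2. Without the 42AB copy, the BS share of repeat counts was 1.29-fold higher in Ars2KD 2 than in Ars2KD 1 and 1.30-fold higher in wKD 2 than in wKD 1. After TMM scaling these ratios were 1.54 in Ars2KD and 1.70 in wKD.

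Long copies other than the one in 42AB carried few reads. All 18 member copies of 4 kb or longer had a count, but the 7 BS copies of this length other than the one in 42AB had 1 to 32 counts each over all 4 libraries, 78 in all, against 21726 for the 42AB copy. Picked out after their values were seen, they include copies in introns of EcR, the ecdysone receptor gene (2R:6096774-6101903), of CG6959 (3R:11841123-11846248) and of CG43373 (3L:16523330-16528455). The 10 X element copies of this length had 5 to 225 counts, 446 in all of 8095 X element counts. The one with most reads lies in 80F (3L:23290583-23295291, plus strand) and had 31 and 48 counts in Ars2KD 1 and 2, against 34 and 112 in wKD 1 and 2. Another, in an intron of fz, a receptor gene of planar cell polarity (3L:14312116-14316826), had 9 counts. The sources used here do not state how reads with several equal positions were assigned, and its part in these counts was not tested.

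Copies with no count were shorter, in the median, than counted ones. A count was seen at 36 of 159 BS copies, 157 of 317 X element copies and 58 of 152 BS3 copies. Counted and uncounted copies had median lengths of 1564 and 155 bp for BS, 579 and 235 bp for the X element and 408.5 and 208 bp for BS3. The introns of Myo81F, a very long heterochromatic gene on 3R that encodes a myosin, hold 66 member copies. Among them 34 BS3 copies lie in a block at 3R:2007625-2075425 with repeated lengths, of which 7 are 89 bp, 5 are 615 bp and 5 are 1137 bp long. These 34 copies had 2 counts in all. By annotation, 207 member copies with 2582 counts lay within introns, and 11 with 33 counts overlapped an exon. The other 410, with 37366 counts, overlapped no annotated gene. They include the copies on unplaced scaffolds, for which no gene was matched.

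The reads were unevenly shared among the copies. Ranked by mean CPM, 1 BS copy, 10 X element copies and 3 BS3 copies held 50% of the reads of their name, and 3, 46 and 13 copies held 90%. The 38C window held the second largest share of BS reads. A 1005 bp BS copy there (2L:20109916-20110920, minus strand, 5766 bp from CG13970) had 150 and 671 counts in Ars2KD 1 and 2, against 219 and 1279 in wKD 1 and 2. As CPM of the repeat total it had 3245 and 3968 in Ars2KD 1 and 2, against 3401 and 3958 in wKD 1 and 2, and after TMM scaling it was 1.47-fold higher in Ars2KD 2 than in Ars2KD 1 and 1.40-fold higher in wKD 2 than in wKD 1. Its log2 ratio was -0.10 (SE 0.49, adjusted p 0.999 by edgeR). Between it and CG13970 lie 2 adjoining rows of 1 annotated X element insertion on the minus strand. The nearer to BS (2L:20109020-20109811) had 29 and 138 counts in Ars2KD 1 and 2, against 27 and 170 in wKD 1 and 2. The other (2L:20107036-20109033) had 48 and 92 counts in Ars2KD 1 and 2, against 63 and 168 in wKD 1 and 2 (log2 ratio 0.00, SE 0.59).

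The BS copies differed among themselves. A 786 bp BS copy on 3R (3R:4038518-4039303) had 5 and 156 counts in Ars2KD 1 and 2, against 10 and 487 in wKD 1 and 2. It was 10.3-fold higher in Ars2KD 2 than in Ars2KD 1 and 11.6-fold higher in wKD 2 than in wKD 1, a wider split than at the 42AB copy (6.33-fold in Ars2KD and 5.27-fold in wKD). A 2785 bp BS copy near it (3R:4033879-4036663) had 14 and 66 counts in Ars2KD 1 and 2, against 23 and 201 in wKD 1 and 2, where these ratios were 1.55 in Ars2KD and 2.09 in wKD. A 213 bp BS copy in 38C (2L:20112770-20112982) had 21 and 27 counts in Ars2KD 1 and 2, against 42 and 134 in wKD 1 and 2, and was lower in both Ars2KD libraries than in both wKD libraries (log2 ratio -0.93, SE 0.68, adjusted p 0.999 by edgeR). That ratio was -1.76 without Ars2KD 1 and -0.42 without Ars2KD 2.

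In the test on 1647 copies, 60 member copies passed the filter on low counts, and 0 were higher and 0 lower, as against 1 higher (0.0607%) and 0 lower (0%) of all. DESeq2, limma-voom and every other setting tried also called 0 member copies, and at an unadjusted p under 0.05 there were 1 higher and 0 lower, where 2.13% and 2.06% of all copies were higher and lower. The groups did not overlap for 9 member copies higher and 3 lower in Ars2KD, where the shares among all copies were 16.8% and 17.3%. The median log2 ratio was 0.01 over the 60 copies, from -1.52 to 2.82, and -0.02 over all 1647 copies. Above 0 were 2 of 11 BS copies, 23 of 34 X element copies and 7 of 15 BS3 copies, against 49.1% of all copies.

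Of the 5 X element copies with most reads, none passed the test. A 1594 bp copy on 3L (3L:24506190-24507783, between genes) had 48 and 373 counts in Ars2KD 1 and 2, against 43 and 432 in wKD 1 and 2, a log2 ratio of 0.62 (SE 0.69, adjusted p 0.999 by edgeR). Leaving out Ars2KD 2 gave -0.25, and leaving out wKD 1 gave -0.015. A 1988 bp copy further along 3L (3L:26126169-26128156) had 46 and 177 counts in Ars2KD 1 and 2, against 41 and 111 in wKD 1 and 2. Its log2 ratio was 1.04 (SE 0.58, adjusted p 0.999 by edgeR), with 0.57 (-0.07 to 1.21) and 1.54 (1.19 to 1.89) within numbers 1 and 2. A 1987 bp copy on 2R (2R:3454078-3456064) had 51 and 172 counts in Ars2KD 1 and 2, against 39 and 292 in wKD 1 and 2 (log2 ratio 0.38, SE 0.57, and -0.12 without wKD 1).

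An X element copy and a BS3 copy lie beside each other in an intron of Myo81F. The 1066 bp X element copy (3R:1417132-1418197) had 31 and 221 counts in Ars2KD 1 and 2, against 20 and 204 in wKD 1 and 2, a log2 ratio of 0.99 (SE 0.71, adjusted p 0.999 by edgeR), which was 0.19 without Ars2KD 2, 0.35 without wKD 1 and 1.81 without wKD 2. The 1469 bp BS3 copy (3R:1418320-1419788) had 72 and 171 counts in Ars2KD 1 and 2, against 49 and 136 in wKD 1 and 2, a log2 ratio of 1.06 (SE 0.56, adjusted p 0.999 by edgeR), with 0.96 (0.41 to 1.51) and 1.20 (0.86 to 1.53) within numbers 1 and 2. As CPM of the repeat total the BS3 copy had 1558 and 1011 in Ars2KD 1 and 2, against 761 and 421 in wKD 1 and 2, and its groups did not overlap. All 66 member copies in Myo81F introns together, a set chosen after its values were seen, had 133 and 480 counts in Ars2KD 1 and 2, against 93 and 533 in wKD 1 and 2. Most of these counts lay in the 2 copies just described. The other 64 had 30 and 88 counts in Ars2KD 1 and 2, against 24 and 193 in wKD 1 and 2. As CPM of the repeat total the other 64 had 649 and 520 in Ars2KD 1 and 2, against 373 and 597 in wKD 1 and 2, so that these groups overlapped.

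The 3 BS3 copies in 80F sit on the minus strand in a row at 3L:23296049-23297930, 8601 bp or more from nAChRalpha4, a nicotinic acetylcholine receptor gene. They had 112, 102 and 63 counts in Ars2KD 1 and 294, 200 and 216 in Ars2KD 2, against 147, 143 and 90 in wKD 1 and 596, 479 and 679 in wKD 2. Their log2 ratios were -0.07 (SE 0.48), -0.22 (SE 0.52) and -0.51 (SE 0.54), all with an edgeR adjusted p of 0.999. The third copy had the highest level in wKD 2, at 2101 CPM of the repeat total, against 1363 and 1277 in Ars2KD 1 and 2 and 1398 in wKD 1.

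**Figure D4:**
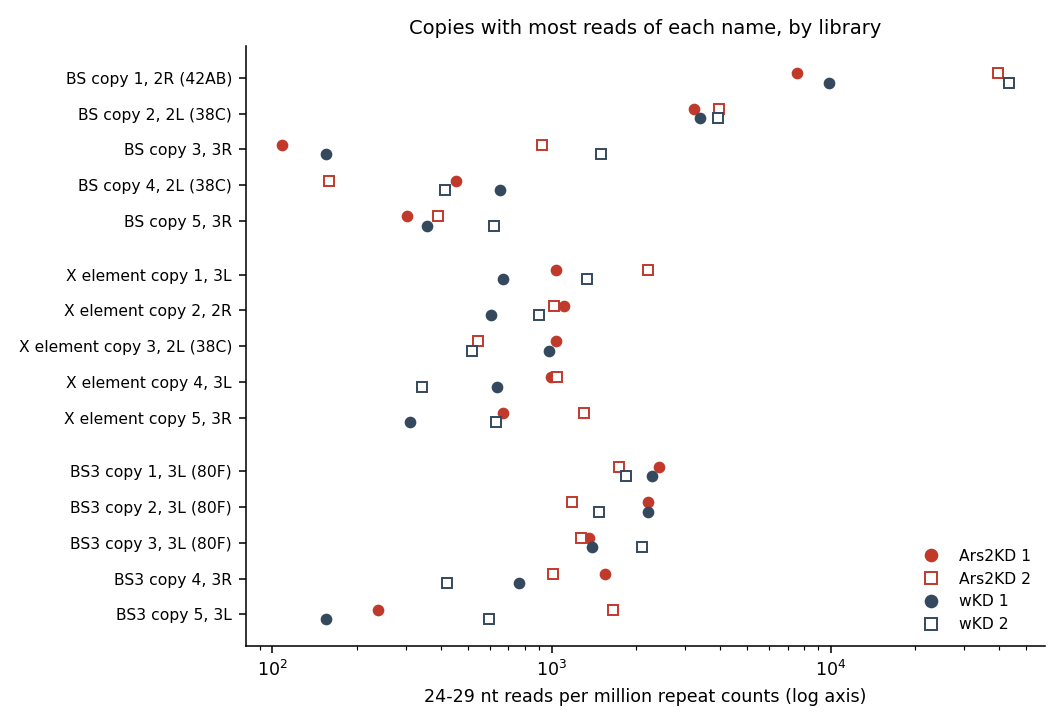
For the 5 copies with the highest mean CPM of each name, points give 24 to 29 nt reads as CPM of the repeat total on a log axis, with Ars2KD in red drawn above wKD in dark blue. Filled circles are libraries 1 and open squares libraries 2. The 42AB copy of BS and the BS copy 3R:4038518-4039303 separate by library number. With a narrower gap, so do BS 3R:4033879-4036663, X element 3L:24506190-24507783 and BS3 3L:23814125-23814752. The 38C copy of BS at 2L:20109916-20110920, where libraries 2 are also the higher, has nearly the same value in all 4 libraries on this scale. The 38C copy at 2L:20112770-20112982 does not, with 454 and 160 in Ars2KD 1 and 2, against 652 and 415 in wKD 1 and 2.

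A pair of BS3 fragments on 3L lies under an annotated X element insertion, so their name is uncertain. The longer (3L:23814125-23814752) had 11 and 281 counts in Ars2KD 1 and 2, against 10 and 193 in wKD 1 and 2, a log2 ratio of 1.27 (SE 1.07), and -1.03 without Ars2KD 2. The shorter (3L:23814777-23814889, 113 bp) had 4 and 39 counts in Ars2KD 1 and 2, against 1 and 8 in wKD 1 and 2. It was the member copy with the lowest p, at a log2 ratio of 2.82 (SE 1.05, adjusted p 0.999 by edgeR), and its interval within number 1 reached from -0.93 to 8.03. A 150 bp X element fragment on 2R (2R:4539178-4539327, 7364 bp from Stlk) had 4 and 21 counts in Ars2KD 1 and 2, against 1 and 6 in wKD 1 and 2, a log2 ratio of 2.48 (SE 1.28).

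Of the copies lower in both Ars2KD libraries than in both wKD libraries, the X element had one in 38C and one on 3L. The 38C copy (2L:20116173-20116644) had 18 and 58 counts in Ars2KD 1 and 2, against 45 and 218 in wKD 1 and 2, a log2 ratio of -0.98 (SE 0.57, adjusted p 0.999 by edgeR), with -0.92 (-1.80 to -0.10) and -1.05 (-1.49 to -0.62) within numbers 1 and 2. The 4703 bp copy on 3L (3L:26785550-26790252, minus strand) had 5 and 23 counts in Ars2KD 1 and 2, against 18 and 70 in wKD 1 and 2, a log2 ratio of -1.02 (SE 0.69, adjusted p 0.999 by edgeR).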

How the data were processed

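Per the submitters' processing notes, reads were handled with FastQC, Trimmomatic, Bowtie2 and featureCounts on the dm6 build. Versions, strand and the treatment of reads with several positions are not given in the sources used here. The authors deposited raw counts for mature miRNAs and, per the file headers, raw counts of 24 to 29 nt reads for each of 137555 annotated repeat copies. Of the 628 member rows, 243 overlap another row. Strand could not be separated.

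Counts were summed per family (169 families, internal and LTR parts joined, simple repeats left out), kept per copy, or summed per family and place. Each table was fitted whole (R 4.3.3, edgeR 4.0.16) by the quasi-likelihood test after TMM scaling and filterByExpr, over 4 libraries and with no block. Adjusted p-values are Benjamini-Hochberg values, with a threshold of 0.05. Alternatives used DESeq2 1.42.0, limma 3.58.1 and other scalings, filters and samples. Named copies were the 5 with the highest mean CPM of each name and, per direction, up to 3 of lowest p whose groups did not overlap, and the long copies and the 42AB neighbours were chosen after their values were seen. The members and lists were chosen with earlier results of these data known. Genes and insertions come from the Ensembl BDGP6 annotation (5896 insertions), which has dm6 coordinates. No library repeated another in a chi-square check of family counts. Number of table columns not used: 0. The fits were tested on simulated counts drawn without any effect of library number, so this check does not cover the split seen here.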

Additional observations from a re-analysis of the deposited data

How the results depend on the processing

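The number of member copies called was 0 in each direction under every alternative tried. Over all families, 1 was called higher, with 2 without copies in 42AB and 0 to 2 with 1 library left out, and 0 lower, with 1 by DESeq2, limma-voom, without copies in 42AB and without the top copy of each name, 3 with no filter, and 0 to 1 with 1 library left out. Over all copies, 1 was called higher, with 4 by DESeq2, 2 with table totals, 4 with no filter and 3 to 4 with 1 library left out, and 0 lower, with 3 by DESeq2, 4 with no filter and 0 to 5 with 1 library left out. Over places, 1 was called higher, with 2 by DESeq2, 2 with DESeq2 size factors, 2 with no filter and 0 to 3 with 1 library left out, and 0 lower, with 2 by DESeq2, 3 with no filter and 0 to 1 with 1 library left out.

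The number in the labels was shared by 1 library of each group, and each library's deviation from its group mean, taken over 135 families, had a correlation of 0.692 with that of the library of the same number. With 2 pairs this does not show that the libraries are paired. With the replicate block, 2 families were called lower, 25 copies higher and 46 lower, and 4 place sums higher and 5 lower, none of them a member.

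With 1 library left out, BS as a family ranged from -1.61 to 1.14 (log2), the X element from 0.08 to 0.50 and BS3 from 0.0054 to 0.19. BS3 turned to -0.041 with the total of both tables. In 42AB, BS ranged from -2.05 to 1.51 and the X element from -1.91 to 0.88. In the other clusters, BS ranged from -0.31 to 0.19 and the X element from -0.071 to 0.057. Elsewhere, BS ranged from -0.92 to 0.71, the X element from 0.23 to 0.68 and BS3 from 0.18 to 0.79. Of the values of named copies over all settings, 19 turned sign and 168 kept it, and the ranges below again leave out 1 library. The 42AB copy of BS ranged from -2.16 to 1.44, the BS copies 2L:20109916 from -0.47 to 0.19, 2L:20112770 from -1.76 to -0.42, 3R:4038518 from -3.33 to 1.95 and 3R:4033879 from -1.16 to 0.078. The X element copies 3L:24506190 ranged from -0.25 to 1.42, 3R:1417132 from 0.19 to 1.81, 2R:3454078 from -0.12 to 0.89 and 2L:20107036 from -0.47 to 0.30, the last also turning to -0.0061 by DESeq2 and -0.0060 with DESeq2 size factors and to -0.18 with no filter. The BS3 copies in 80F ranged from -0.29 to 0.020, -0.67 to 0.060 and -1.02 to 0.0066, the first turning to 0.026 with table totals, and 3L:23814125 from -1.03 to 2.81. Leaving out 1 library also leaves the groups with unequal sets of library numbers. The part of this in these changes, and any other cause, was not tested. Depth limits the values of single copies most in Ars2KD 1, where the BS copy 3R:4038518 rested on 5 counts.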
